A study of Homo sapiens with 6 samples.

Results

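The genes described here are 55 regulators of pre-mRNA splicing named as a list by their function: 13 SR proteins, 26 hnRNP proteins, 6 kinases that phosphorylate SR proteins, and 10 nuclear speckle, U1-associated or related genes. They were chosen by name and not by their measured values, and each of the 55 symbols was matched to 1 Ensembl gene among the 50868 genes in the deposited tables. They were compared between cells given an siRNA against SF3B4 and cells given a control siRNA, class by class. SF3B4 is a subunit of the SF3B complex, through which the U2 snRNP recognises the branch site of an intron.

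The study holds 6 RNA-seq libraries of total RNA from cells labelled A549, a lung adenocarcinoma line grown in RPMI medium with fetal bovine serum. The 3 control libraries, written as control 1 to 3, received the control siRNA, titled si-NC and called a scramble siRNA in the protocol, and have the genotype WT. The other 3, written as siRNA 1 to 3, received the SF3B4 siRNA. The siRNA sequences, the number of siRNAs and the time after transfection were not given in the sources used here. The genotype label of siRNA 1 names an SF3B4 knockdown, but those of siRNA 2 and siRNA 3 name SF3B5 and SF3B6. The titles and treatments of all 3 name SF3B4, and these were followed. The titles call the samples biological replicates without saying that they are separate cultures, so each p-value speaks only of the spread among these 6 samples, which may be technical. In bulk RNA, fewer cells that express a gene and less RNA per cell cannot be told apart.

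SF3B4 was listed at 91.5 ± 2.62 FPKM (fragments per kilobase of exon, scaled to the library's fragment total; SD, n = 3) in the control libraries and at 20.7 ± 2.60 FPKM (SD, n = 3) in the siRNA libraries, which is 22.6% of control. Its groups did not overlap (limma adjusted p = 8.8e-05; exact two-sided permutation test p = 0.1, the smallest that 3 against 3 allows). SF3B5 went from a mean of 426 to 199 FPKM (limma adjusted p = 9.56e-05) and SF3B6 from 45.9 to 41.5 FPKM (limma adjusted p = 0.18). In siRNA 1 to 3, SF3B4 was at 22.0, 17.7 and 22.3 FPKM and SF3B5 at 201, 189 and 207 FPKM. SF3B6 was at 39.1, 43.3 and 42.2 FPKM in the same libraries. The sample names inside the files carry H1650, another lung cancer line. Of 14 genes fixed as A549 markers, 5 had a mean under 1 FPKM, among them AKR1C1, AKR1C2, ALDH1A1 and ALDH3A1. Another 5 had a mean of at least 10 FPKM, among them AKR1B1 at 226, NQO1 at 167, KRT8 at 238 and KRT18 at 269 FPKM. The names and markers did not settle the line, so the cells are called the libraries labelled A549. Of 12 markers of other cell types 9 were under 1 FPKM, and PTPRC, the leukocyte gene, was at 0 in all 6 libraries. Of those 12, CD14 and COL1A1 rose. CD14 was at 2.45 to 2.87 FPKM in control and 4.70 to 6.59 FPKM in siRNA libraries, and COL1A1 at 1.24 to 1.44 FPKM and then 2.23 to 2.33 FPKM. The summed level of the 12 was 27.1 to 35.3 FPKM in control and 34.6 to 37.8 FPKM in siRNA libraries (ranges over 3 libraries). Most of that sum was CD68, at 22.3 to 30.6 FPKM and then 25.9 to 28.2 FPKM (limma adjusted p = 0.88). Among the A549 markers AKR1B10 and TXNRD1 rose and UGDH and VIM fell, with VIM at 2.69 to 4.06 FPKM in control and 1.41 to 1.65 FPKM in siRNA libraries. Of 11 lung epithelial markers EPCAM, CDH1 and ELF3 rose, with CDH1 at 33.6 to 49.1 FPKM and then 61.3 to 84.3 FPKM. In a fit that kept low genes EPCAM and TXNRD1 were not called (limma adjusted p = 0.13 and 0.098). Of the 11, 7 had a mean of at least 10 FPKM, with KRT19 the highest at 644 FPKM. The other 4 were under 1 FPKM, with SFTPB and SFTPC at 0 in all 6 libraries. The part of these markers in the results was not tested. The depth implied by the smallest steps of the FPKM values was 17511125 to 18529764 fragments per library.

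SR proteins bind exonic enhancers and help the U1 and U2 snRNPs to define the exon, while many hnRNP proteins bind introns or exons and keep sites from being used. CLK kinases phosphorylate the serine-arginine domains of SR proteins in the nucleus and SRPK kinases do so mainly in the cytoplasm, which controls their import and their release from nuclear speckles. Speckles are nuclear bodies, built around SON and SRRM2, that hold splicing factors. Many of these regulators limit their own level by splicing in a poison exon, which sends the transcript to nonsense-mediated decay (NMD). Values summed per gene, as here, do not separate such transcripts from coding ones.

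One set of short sequences is shown because an earlier analysis of the same comparison had picked its 7-letter words, GCCTTCA and CCTTCAA, as frequent in the 3′ UTRs of genes that fell. The windows below are the 3′ UTR stretches of the 4 members with a word that fell and of SRSF2, the parent gene of SRSF8, which did not pass the test. Each is 30 bases, 5′ to 3′ on the transcript's strand, taken from the GRCh38 genome through GENCODE 29, with the word in capitals.
PTBP1, chr19:811790-811796, plus strand: ccttacaccacGCCTTCAcctgcagtcgcc
PTBP1, chr19:811845-811851, plus strand: ggttttttcttCCTTCAAattttggaccaa
SRSF8, chr11:95068483-95068489, plus strand: gcttcaacattGCCTTCAttccttaaaaac
SRSF2, chr17:76734749-76734755, minus strand: gactcagcattGCCTTCAttccttaaaatt
SRSF6, chr20:43463078-43463084, plus strand: gtatgaaacatCCTTCAActgggctctctt
HNRNPUL2, chr11:62713971-62713977, minus strand: tctagccaggaGCCTTCAgttgggatagtt
The SRSF8 window, in a gene that arose as a retrocopy of SRSF2, is identical to the SRSF2 window at 25 of 30 positions.

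Most of the regulators tested did not differ past the threshold, and those that did were mainly lower. Of the 47 members tested, 11 fell and 3 rose at a limma adjusted p below 0.05, and 33 did not pass. The falls were led by PTBP1, which was left at 49.3% of its control level, and by SRRM1, HNRNPAB, SRSF8, DDX39B and SRRM2. The 3 that rose were CLK2, PCBP2 and SRSF9, each by less than 1.5-fold. Called members made up 29.8% of those tested, beside 34.1% of all 9685 genes tested. By direction, 23.4% of the members fell beside 18.1% of all genes, and 6.38% rose beside 16.0%. A test was run on genes with at least 1 FPKM in at least 3 of the 6 libraries; 46 of the 47 tested members reached 1 FPKM in every library, and SRPK1 did so in 3. The other 8 members, SRSF11, PTBP2, CLK1, CLK4, SRPK2, LUC7L, LUC7L3 and PNISR, were too low.

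The median log2 fold change, siRNA minus control on log2(FPKM + 0.1), was -0.19 over the 47 tested members and 0.00 over all tested genes, with 36 of the 47 below 0 beside 50.4% of all genes. By class the median was -0.25 for 12 SR proteins, -0.19 for 25 hnRNP proteins, 0.05 for 3 kinases and -0.19 for 7 speckle and LUC7-like genes. With each siRNA library set against the control mean, the class median was -0.16, -0.18 and -0.11 in siRNA 1 to 3 for the SR proteins and -0.23, -0.21 and -0.11 for the hnRNP proteins. Both were below 0 in all 3 and nearest to 0 in siRNA 3. For the speckle genes it was -0.39, -0.12 and -0.16, with siRNA 1 the lowest. For the kinases it was 0.08, 0.09 and -0.03, so its sign differed between libraries. The 3 siRNA libraries lay wholly below the 3 control libraries in 18 of 47 members, beside 25.7% of all tested genes, and wholly above them in 5, beside 23.8% of all tested genes. In all 23 of the 47 did not overlap, beside 49.5% of all tested genes.

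**Figure D1:**
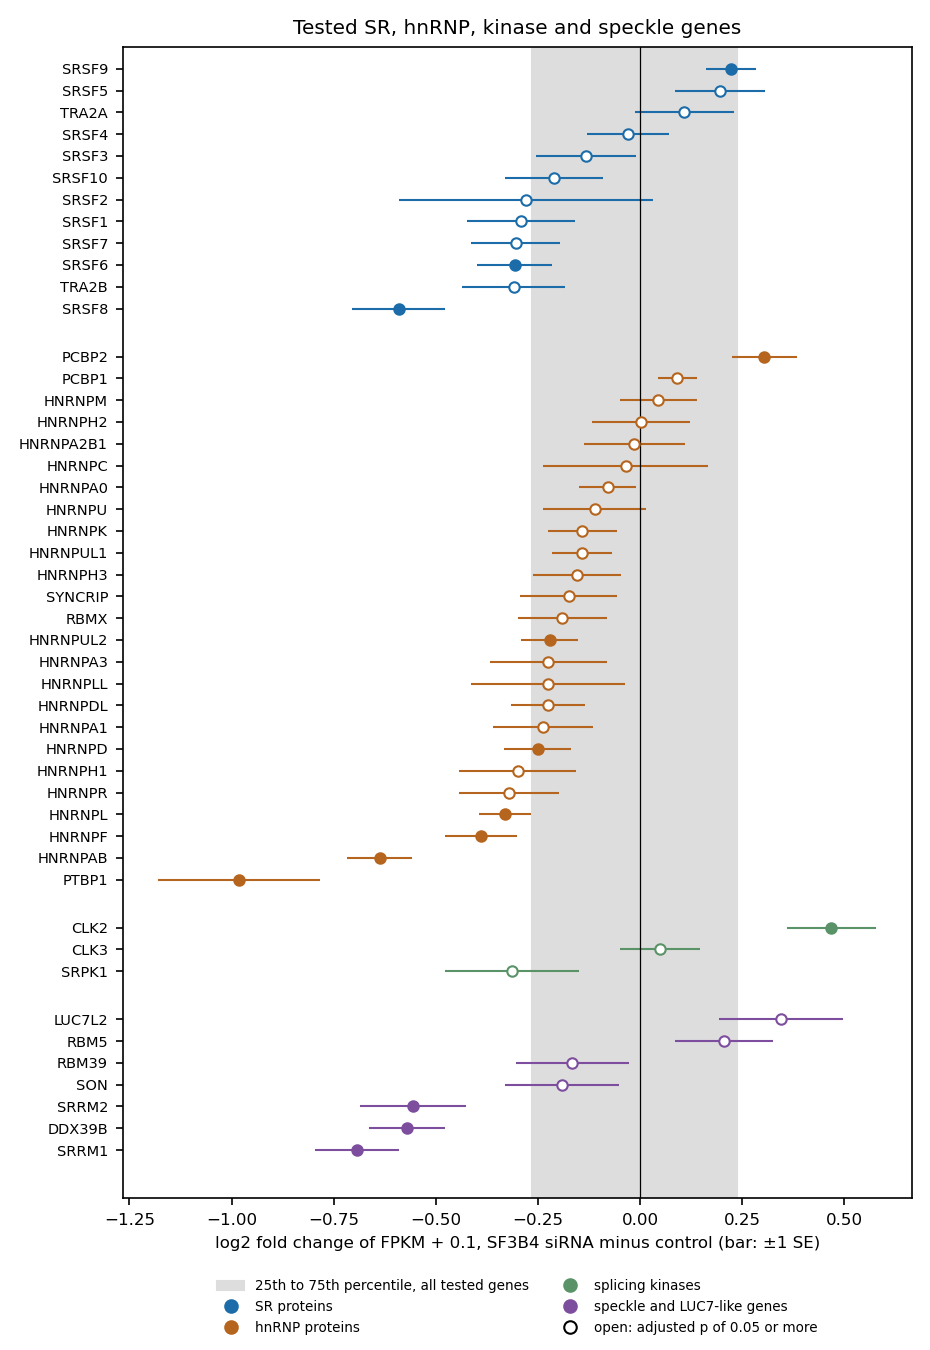
The horizontal axis is the fitted log2 fold change (SF3B4 siRNA minus control, bars ±1 SE) of each of the 47 tested members, coloured by class; filled points have a limma adjusted p below 0.05 and the grey band spans the 25th to 75th percentile of all tested genes. Most points sit left of 0, with 11 filled points on the left and 3 on the right.

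Among the SR proteins, SRSF8 and SRSF6 fell and SRSF9 rose, 3 of 12 tested (25%), beside 34.1% of all tested genes called either way. SRSF8 (ENSG00000263465, chr11:95067197-95071224) was listed at 5.46, 4.36 and 5.03 FPKM in control 1 to 3 and at 2.98, 3.32 and 3.44 FPKM in siRNA 1 to 3. All siRNA values were below all control values, and the fitted difference was -0.59 ± 0.11 in log2 (SE; limma adjusted p = 0.0064; 0.079 against a minimum fold change of 1.2). SRSF6, which promotes inclusion of alternative exons and is regulated by a poison exon of its own, was at 29.3, 25.7 and 25.1 FPKM in the controls and 23.0, 19.5 and 22.2 FPKM in the siRNA libraries. The groups were separate by a small margin (-0.31 ± 0.09, SE; limma adjusted p = 0.036). The SRSF6 call was lost without any 1 of control 1, control 2, control 3, siRNA 2 or siRNA 3, with adjusted p of 0.082, 0.061, 0.051, 0.11 and 0.067, and it was lost with no filter (adjusted p = 0.095).

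SRSF9, the most abundant SR gene here, was at 50.7, 51.1 and 51.2 FPKM in the controls and 57.0, 58.8 and 62.9 FPKM in the siRNA libraries. The controls lay close together and all siRNA values were higher (0.22 ± 0.06, SE; limma adjusted p = 0.026). Without control 2, control 3, siRNA 2 or siRNA 3 the adjusted p was 0.062, 0.067, 0.061 and 0.099, and it was 0.051 with no filter and 0.071 after quantile normalization. GATC lies on the opposite strand over 46.2% of the exonic bases of SRSF9 at a mean of 7.68 FPKM, and the strand setting of the counting was not given in the sources used here, so reads of that stretch cannot be told apart. SRSF9 made up 42.5% of the FPKM summed over all SR genes, taken over the 6 libraries. That sum was 132 ± 3.93 FPKM in the control and 128 ± 4.18 FPKM in the siRNA libraries (SD, n = 3), a gap about as large as the spread within a group.

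The other 9 tested SR genes did not pass (limma adjusted p from 0.064 to 0.85), 7 of them with a log2 fold change below 0. The largest differences among these were in TRA2B, which binds purine-rich exonic enhancers, and in SRSF7. TRA2B had means of 4.52 ± 0.668 and 3.61 ± 0.283 FPKM (SD, n = 3; -0.31, limma adjusted p = 0.096), with groups that did not overlap. SRSF7, which also links splicing to mRNA export, had means of 6.33 ± 0.671 and 5.10 ± 0.410 FPKM (SD, n = 3; -0.30, limma adjusted p = 0.064), again without overlap. The next pair of genes was picked after their values were seen. SRSF2, an SR protein that binds both C-rich and G-rich enhancers, had the widest spread, at 5.85, 10.5 and 10.1 FPKM in control and 9.12, 7.95 and 4.79 FPKM in siRNA libraries, and the groups overlapped (limma adjusted p = 0.53). MFSD11 lies on the opposite strand over 36.7% of its exonic bases. SRSF1, the founding member of the family, was at 7.86, 7.55 and 7.82 FPKM in control and 5.34, 6.10 and 7.71 FPKM in siRNA libraries (limma adjusted p = 0.13). It passed only when siRNA 3 was left out (adjusted p = 0.024), the library that lay within the control range.

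**Figure D2:**
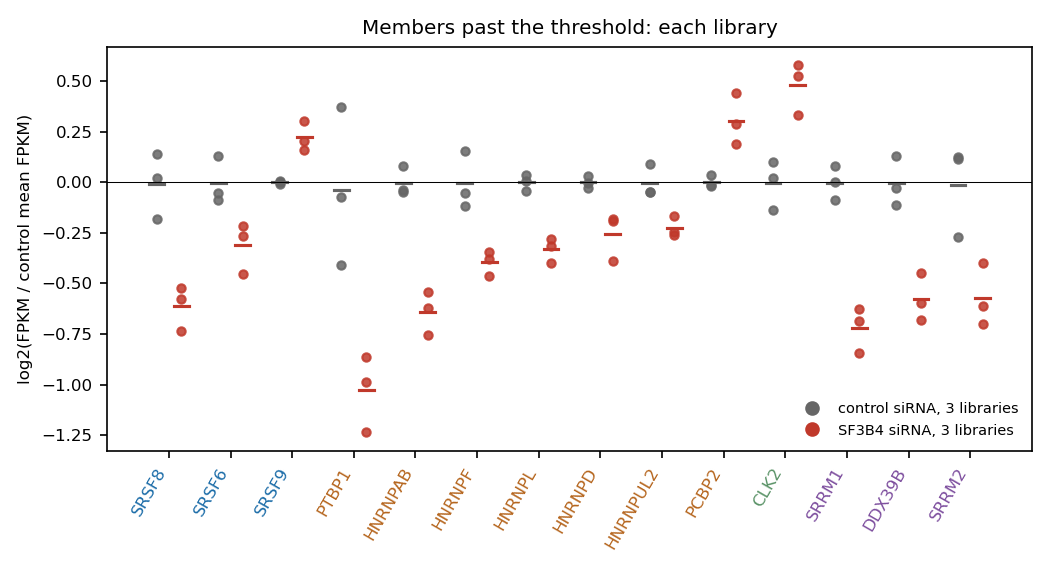
The vertical axis is log2 of each library's FPKM over the control mean for the 14 members past the threshold, with grey points for the 3 control and red points for the 3 SF3B4 siRNA libraries and short lines at the group means of the log2 values. The red points lie wholly above the grey ones for SRSF9, PCBP2 and CLK2 and wholly below them for the other 11 genes; PTBP1 reaches lowest and has the widest control spread of those named here.

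Among the hnRNP proteins 6 of 25 tested members fell (24%) and 1 rose (4%), beside 18.1% and 16.0% of all tested genes. Called members were 28% of this class, beside 34.1% of all tested genes. PTBP1 (ENSG00000011304, chr19:797075-812327), which binds polypyrimidine tracts and represses neuronal and muscle exons, was at 15.2, 8.80 and 11.1 FPKM in the controls and 6.43, 4.97 and 5.90 FPKM in the siRNA libraries. Control 1 stood highest, and even the lowest control value was above every siRNA value. The means were 11.7 ± 3.22 and 5.77 ± 0.742 FPKM (SD, n = 3), a fitted difference of -0.98 ± 0.20 in log2 (SE; limma adjusted p = 0.0089). The call held under all 15 alternative settings.

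PTBP2 (ENSG00000117569, chr1:96721665-96823738) is the neuronal paralogue of PTBP1. It is known as a target of PTBP1, which causes skipping of a PTBP2 exon and so sends the transcript to decay. PTBP2 was too low for the filter, at 0.273, 0.179 and 0.163 FPKM in the controls and 0.622, 0.531 and 0.648 FPKM in the siRNA libraries. Every siRNA value was above every control value, and the mean was 2.93-fold higher. With no filter on low values it was called higher, at 1.21 ± 0.19 (SE; limma adjusted p = 0.013), in a fit of 24450 genes that called 4.87% of them higher and 6.03% lower. That fit called 2 members higher, PTBP2 and CLK2, and 7 lower. At these levels PTBP2 was covered by at most 38 to 155 fragments per library. PTBP2 amounted to 1.80%, 2.04% and 1.46% of PTBP1 in the control and 9.67%, 10.7% and 11.0% in the siRNA libraries, on the per-length FPKM scale. Even so the sum of the PTBP1 and PTBP2 levels stayed lower in the siRNA libraries, at 5.50 to 7.06 FPKM beside 8.98 to 15.4 FPKM in control. The third paralogue, PTBP3, which is outside the list and was picked after its values were seen, had means of 1.81 ± 0.348 and 2.18 ± 0.379 FPKM (SD, n = 3; limma adjusted p = 0.30).

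**Figure D3:**
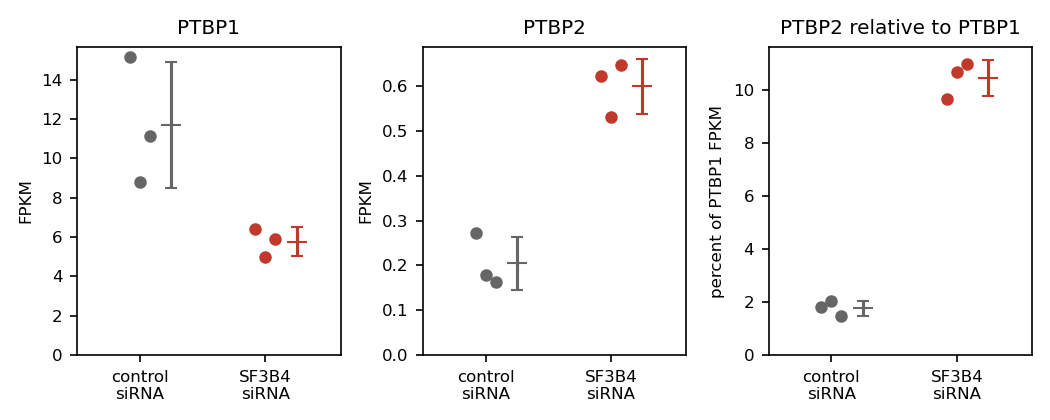
The panels show the FPKM of PTBP1, the FPKM of PTBP2 and PTBP2 as a percentage of PTBP1, each from 0, with 1 point per library, 3 libraries per group, and the mean ± SD beside them. PTBP1 is lower and PTBP2 higher in every SF3B4 siRNA library than in any control library, and the percentage goes from 1.46 to 2.04 in control to 9.67 to 11.0 in siRNA libraries.

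HNRNPAB (ENSG00000197451, chr5:178204507-178211163), an RNA- and DNA-binding protein of the A/B type, gave the smallest adjusted p of the hnRNP class. It was at 27.7, 25.3 and 25.4 FPKM in the control and 17.0, 15.5 and 17.9 FPKM in the siRNA libraries, well apart (-0.64 ± 0.08, SE; limma adjusted p = 0.0011). HNRNPF, which binds G-runs, was at 19.8, 17.2 and 16.5 FPKM and then 12.9, 13.7 and 14.0 FPKM (-0.39 ± 0.09, SE; limma adjusted p = 0.013). HNRNPL, which binds CA repeats, was at 34.1, 36.0 and 35.2 FPKM and then 28.2, 26.6 and 28.9 FPKM (-0.33 ± 0.06, SE; limma adjusted p = 0.0065). The groups of both were clearly separate, and both calls held without any 1 library, but neither change passed a test against a minimum fold change of 1.2 (adjusted p = 0.38 and 0.54).

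HNRNPD, also called AUF1, binds AU-rich elements that mark mRNAs for decay, and was at 12.9, 13.3 and 12.8 FPKM in the control and 11.4, 11.5 and 9.93 FPKM in the siRNA libraries (-0.25 ± 0.08, SE; limma adjusted p = 0.049). HNRNPUL2, a relative of the nuclear matrix protein HNRNPU, was at 26.8, 24.3 and 24.3 FPKM and then 21.2, 21.0 and 22.4 FPKM (-0.22 ± 0.07, SE; limma adjusted p = 0.045). Both were lower in every siRNA library, yet the call on each was lost whichever of the 6 libraries was left out, with adjusted p of 0.065 to 0.16 for HNRNPD and 0.067 to 0.13 for HNRNPUL2. The readthrough gene HNRNPUL2-BSCL2 shares 44.1% of the exonic bases of HNRNPUL2, and was listed at a mean of 1.51 FPKM.

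PCBP2, which binds C-rich RNA and acts in mRNA stability and translation, was the hnRNP gene that rose. It was at 23.1, 24.0 and 23.1 FPKM in the control and 31.7, 26.7 and 28.6 FPKM in the siRNA libraries, with siRNA 1 the highest (0.30 ± 0.08, SE; limma adjusted p = 0.021). Without control 3, siRNA 1 or siRNA 3 the adjusted p was 0.062, 0.073 and 0.054, and it was 0.056 with no filter. Its exons overlap those of other genes, with MAP3K12 on the opposite strand over 18.8% and ENSG00000257379, listed at 60.5 FPKM, on the same strand over 13.8%, so its value is uncertain. Its intronless relative PCBP1 was the most abundant member, at 373, 380 and 365 FPKM in the control and 398, 396 and 395 FPKM in the siRNA libraries. The PCBP1 groups did not overlap, but the difference was small and did not pass (0.09, limma adjusted p = 0.18).

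Of the hnRNP genes, 18 did not pass, 15 with a log2 fold change below 0 and 3 above. HNRNPR had means of 3.89 ± 0.502 and 3.09 ± 0.274 FPKM (SD, n = 3; -0.32, limma adjusted p = 0.080) and HNRNPH1, a G-run binder related to HNRNPF, had a control mean of 1.63 ± 0.260 FPKM (SD, n = 3) and an siRNA mean at 79.4% of it (-0.30, limma adjusted p = 0.14). HNRNPK, a C-rich RNA binder, was at 58.1, 49.7 and 47.3 FPKM in the control and 46.3, 46.0 and 47.7 FPKM in the siRNA libraries (limma adjusted p = 0.23). Its siRNA values lay just below or within the control range. The FPKM summed over the hnRNP class was 730 ± 19.8 in the control and 712 ± 10.3 in the siRNA libraries (SD, n = 3), and PCBP1 alone made up 53.3% of the sum over the 6 libraries.

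The hnRNP genes have many processed pseudogenes, near-identical intronless copies that can take reads of the parent, and for several members the copies were listed higher than the gene. HNRNPA1, an abundant repressor of exon inclusion, was listed at a mean of 5.90 FPKM and its 74 named pseudogenes together at 152 FPKM. HNRNPA1P7 alone was at 163, 152 and 145 FPKM in the control and 125, 120 and 133 FPKM in the siRNA libraries, all lower (-0.28, limma adjusted p = 0.017). HNRNPA3 had a mean of 3.27 FPKM beside 48.7 FPKM in 16 pseudogenes, and HNRNPC, which binds uridine tracts, 14.1 FPKM beside 54.1 FPKM. FPKM is per length, and their most abundant copies are shorter than the genes, at 881 exonic bases for HNRNPCP2 beside 7309 for HNRNPC. In fragments per library HNRNPC held at most 1461 to 2324, beside 735 to 970 for HNRNPCP2. For HNRNPA1 the numbers were 441 to 658, beside 2100 to 2858 for HNRNPA1P7. For HNRNPA3 they were 268 to 410, beside 616 to 828 for HNRNPA3P6. The levels of these 3 genes are therefore uncertain. When each member's pseudogene values were added to its own, an alternative chosen after seeing the data, HNRNPA1 went from 173 to 141 FPKM and passed (-0.29 ± 0.07, SE; limma adjusted p = 0.013), while on its own it did not (limma adjusted p = 0.18). Of these sums HNRNPA1P7, which had passed by itself, made up 153 and 126 FPKM, so the call rests mainly on that copy. Such a sum adds values scaled by different lengths, so it is not a level of the gene. RBMX, an hnRNP encoded on the X chromosome, went from 9.04 to 7.52 FPKM and passed with its copies added (-0.27, limma adjusted p = 0.045) but not without. Its copy RBMXP2 had passed by itself, from 3.94 to 2.96 FPKM (limma adjusted p = 0.031, and 0.075 with no filter). The calls on PCBP2, HNRNPL and SRSF6 were kept with their copies added (limma adjusted p = 0.013, 0.0041 and 0.043). HNRNPA3, HNRNPC, HNRNPK, HNRNPU and RBM39 did not pass in either form.

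**Figure D4:**
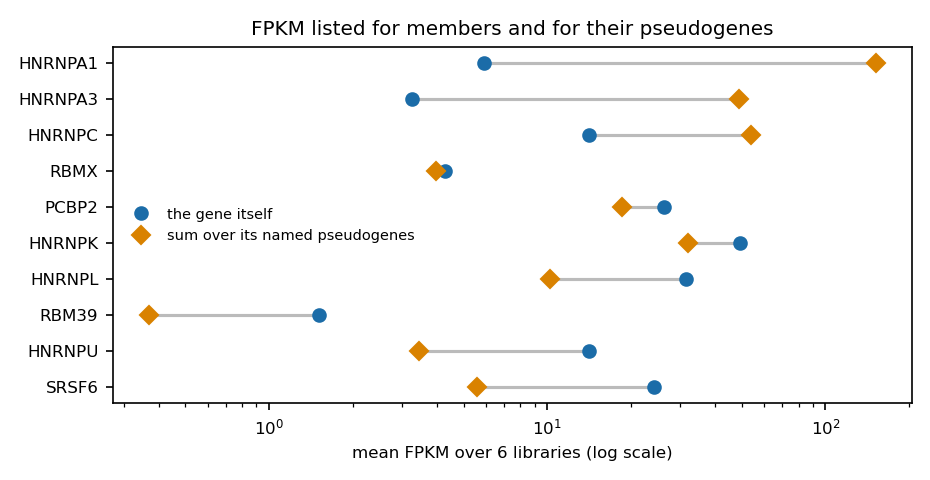
Each row is a member with named pseudogenes at 10% or more of its own level; the horizontal log axis gives the mean FPKM over all 6 libraries of the gene (circle) and of the sum of its pseudogenes (diamond). For HNRNPA1, HNRNPA3 and HNRNPC the diamond lies to the right of the circle, at 152, 48.7 and 54.1 FPKM.

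Of the 6 kinases only 3 were high enough to be tested. CLK2 alone rose, 1 of 3, beside 16.0% of all tested genes, and no kinase fell. CLK2 (ENSG00000176444, chr1:155262868-155278491), which phosphorylates SR proteins in the nucleus, was at 2.66, 2.97 and 3.13 FPKM in the control and 4.36, 4.20 and 3.68 FPKM in the siRNA libraries. All siRNA values were higher, by 1.40-fold on the means (0.47 ± 0.11, SE; limma adjusted p = 0.014). Without siRNA 1, the highest library, the adjusted p was 0.052, and against a minimum fold change of 1.2 it was 0.23. CLK3, of the same family, had means of 2.49 ± 0.114 and 2.58 ± 0.121 FPKM (SD, n = 3; 0.05, limma adjusted p = 0.73). SRPK1, which phosphorylates SR proteins for import into the nucleus, was at 1.22, 1.02 and 0.979 FPKM in the control and 0.731, 0.808 and 1.00 FPKM in the siRNA libraries (-0.31, limma adjusted p = 0.18). Its groups overlapped.

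The other 3 kinases were below the filter, and their values are given with the limma adjusted p of the fit without a filter. CLK1 had means of 0.386 ± 0.0402 and 0.357 ± 0.0243 FPKM (SD, n = 3; adjusted p = 0.76) and SRPK2 0.956 ± 0.0547 and 0.928 ± 0.143 FPKM (SD, n = 3; adjusted p = 0.87). CLK4 was at 0.0952 ± 0.0327 and 0.0815 ± 0.00666 FPKM (SD, n = 3; adjusted p = 0.84), which is at most 10 to 19 fragments per library. None of these 3 passed in that fit, and whether depth limited this was not tested. The FPKM summed over all 6 kinases was 7.92 ± 0.131 in the control and 8.88 ± 0.281 in the siRNA libraries (SD, n = 3), and CLK2 was the largest part of it, 41.7% over the 6 libraries.

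Among the speckle and LUC7-like genes, 3 of 7 tested fell (42.9%) and none rose, beside 18.1% and 16.0% of all tested genes. The 3 that fell include both serine/arginine repetitive matrix proteins of the list. SRRM1 (ENSG00000133226, chr1:24631716-24673267), a splicing coactivator that joins the exon junction complex, was at 4.03, 3.59 and 3.81 FPKM in the control and 2.37, 2.46 and 2.12 FPKM in the siRNA libraries. It was left at 60.9% of control, with the groups far apart (-0.69 ± 0.10, SE; limma adjusted p = 0.0022). SRRM2 (ENSG00000167978, chr16:2752329-2772538), a large scaffold protein of the speckle, was at 19.7, 15.0 and 19.6 FPKM and then 13.7, 11.2 and 11.9 FPKM. Control 2 was the lowest control and still above siRNA 1, and the mean was left at 67.6% of control (-0.56 ± 0.13, SE; limma adjusted p = 0.014). The adjusted p was 0.052 with no filter and 0.16 against a minimum fold change of 1.2.

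DDX39B (ENSG00000198563, chr6:31530219-31542448), also called UAP56, is the helicase that helps U2 snRNP join the intron and that brings the TREX complex to spliced mRNA for export. It was at 22.7, 25.3 and 21.4 FPKM in the control and 16.9, 15.3 and 14.4 FPKM in the siRNA libraries, lower in all 3. It was left at 67.2% of control (-0.57 ± 0.09, SE; limma adjusted p = 0.0032). The readthrough gene ATP6V1G2-DDX39B shares 29.7% of its exonic bases and was listed at 1.64 FPKM. The FPKM summed over the 10 genes was 55.0 ± 2.39 in the control and 40.3 ± 2.24 in the siRNA libraries (SD, n = 3), the largest relative gap of the 4 class sums, and DDX39B made up 40.6% of it over the 6 libraries.

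The 4 others tested did not pass (limma adjusted p from 0.12 to 0.39). LUC7L2, a U1 snRNP-associated protein that affects the choice of 5′ splice site, was at 1.79, 1.61 and 1.41 FPKM in the control and 2.32, 1.70 and 2.18 FPKM in the siRNA libraries (0.34, limma adjusted p = 0.12), with overlap. The readthrough gene FMC1-LUC7L2, which shares 21.8% of its exonic bases, was listed at 11.0 FPKM, so LUC7L2 is uncertain. RBM5, which regulates exon choice in apoptosis genes, had means of 1.66 ± 0.178 and 1.93 ± 0.104 FPKM (SD, n = 3; 0.21, limma adjusted p = 0.22). SON, the other scaffold of the speckle and picked after its values were seen, had means of 4.05 and 3.54 FPKM (-0.19, limma adjusted p = 0.33).

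Below the filter, LUC7L was at 0.464, 0.441 and 0.365 FPKM in the control and 0.544, 0.561 and 0.610 FPKM in the siRNA libraries, without overlap (0.36, limma adjusted p = 0.18 without a filter). LUC7L3 had means of 0.398 ± 0.0594 and 0.446 ± 0.0393 FPKM (SD, n = 3; adjusted p = 0.63) and PNISR 0.204 ± 0.0470 and 0.222 ± 0.0583 FPKM (SD, n = 3; adjusted p = 0.87) in the same limma fit. SRSF11, the SR gene below the filter, had means of 0.677 ± 0.0628 and 0.593 ± 0.0443 FPKM (SD, n = 3; limma adjusted p = 0.54).

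Transcripts annotated as subject to NMD are common in these genes. GENCODE 29 lists at least 1 such transcript for 44 of the 55 members (80%), beside 3554 of 8475 tested protein-coding genes (41.9%). All 13 SR genes and all 10 speckle and LUC7-like genes have one, as do 16 of 26 hnRNP genes and 5 of 6 kinases. A retained-intron transcript is listed for 41 of 55 members (74.5%), beside 57.8% of tested protein-coding genes. Of the 37 tested members with an NMD transcript 8 fell (21.6%) and 2 rose (5.41%), with a median log2 fold change of -0.21. Of the 10 without one 3 fell (30%) and 1 rose (10%), with a median of -0.16. Over all tested genes 18.1% fell and 16.0% rose, with a median of 0.00. Because FPKM per gene adds up all isoforms, these counts do not show which isoform changed.

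The 7-letter words of the windows shown above were about as frequent in the members as in all tested genes. The words GCCTTCA or CCTTCAA, on the transcript strand, which share 6 letters and so can overlap, occur in the annotated 3′ UTR of 10 of the 55 members. Among tested genes they occur in 9 of 47 members (19.1%) and in 1458 of 8381 genes with a 3′ UTR (17.4%). Split by direction, 4 of the 11 members that fell carry a word, namely PTBP1, SRSF8, SRSF6 and HNRNPUL2. So do 5 of the 36 others, SRSF2, HNRNPA0, HNRNPA1, HNRNPH3 and SRPK1, of which only SRSF2 has its window shown above. Over all genes the shares were 33.0% of 1566 that fell and 13.8% of 6815 that did not. The words were chosen on this comparison, so these shares lend it no separate support. The 3′ UTRs of members with a word had a median of 2606 bases, beside 779 in those without, and their length moves with the presence of a word. The 9 tested carriers ranged from -0.98 to -0.08 in log2 fold change, with a median of -0.28. The 38 tested members without a word ranged from -0.69 to 0.47, with a median of -0.17 and 27 below 0.

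Of 33 other SR-related and speckle genes 16 were tested, and 3 fell and 0 rose, beside 18.1% and 16.0% of all tested genes. The 3 were SCAF4, which acts in transcription termination, from 5.04 to 3.43 FPKM (-0.54, limma adjusted p = 0.0046), PNN, a speckle and exon junction protein, from 3.19 to 2.09 FPKM (-0.58, limma adjusted p = 0.043), and SRRT, which links capped RNA to processing and decay, from 15.3 to 10.7 FPKM (-0.51, limma adjusted p = 0.0035). In a list of other RNA-binding regulators 3 of 30 tested fell and 0 rose, beside the same shares of all genes: RBM47, an epithelial splicing regulator, from 1.48 to 0.950 FPKM (limma adjusted p = 0.028), FUBP3 from 5.49 to 4.25 FPKM (limma adjusted p = 0.050), and SFPQ, a paraspeckle protein, from 11.5 to 9.46 FPKM (limma adjusted p = 0.048). RBM47 reached 1 FPKM in all 3 control libraries but in only 1 siRNA library. All 3 of these regulators, and PNN, lost the call with no filter on low values, with limma adjusted p of 0.071 for RBM47, 0.12 for FUBP3, 0.11 for SFPQ and 0.12 for PNN. The median log2 fold changes of the 2 lists were -0.07 and -0.05.

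Among 16 tested kinases, phosphatases, methyltransferases and import factors of SR proteins, 1 rose and 2 fell, beside 16.0% and 18.1% of all tested genes. DYRK1B, a kinase of the family next to the CLKs, went from 5.29 to 8.32 FPKM (0.65, limma adjusted p = 0.0019). The phosphatase subunit PPP1CC went from 3.46 to 2.33 FPKM (-0.55, limma adjusted p = 0.0085) and PRMT1, the main arginine methyltransferase of hnRNP proteins, from 67.2 to 55.1 FPKM (-0.29, limma adjusted p = 0.017). Of 11 tested partners of SR proteins and DDX39B in mRNA export, 2 rose and 2 fell, which is 18.2% each way. Those shares are close to the 16.0% and 18.1% of all tested genes. Of the TREX subunits, THOC5 went from 7.18 to 9.15 FPKM (0.34, limma adjusted p = 0.011) and THOC6 from 7.31 to 5.43 FPKM (-0.41, limma adjusted p = 0.033). CHTOP, another TREX protein, went from 8.82 to 11.5 FPKM (0.38, limma adjusted p = 0.029). NXT1, the cofactor of the export receptor NXF1, went from 62.8 to 39.5 FPKM (-0.67, limma adjusted p = 0.0011). With no filter the limma adjusted p was 0.088 for THOC6 and 0.079 for CHTOP, and the other genes of these lists named here kept their calls.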

How the data were processed

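Deposited values were FPKM per Ensembl gene, 1 table for each of the 6 libraries. The submitters' processing notes name HISAT2 2.0.4, StringTie 1.3.0 and GRCh38 without their roles; no source used here gave the annotation or strand setting. FPKM had been computed by the authors and sums all isoforms of a gene. Of 50868 gene IDs 36020 had a symbol and 50111 were in GENCODE 29, which gave positions, transcript types and 3′ UTRs (1 principal transcript per gene). Genes with at least 1 FPKM in at least 3 libraries were tested with limma 3.58.1 (R 4.3.3) on log2(FPKM + 0.1), with trended, robust empirical Bayes, two-sided, and Benjamini-Hochberg adjustment over all 9685 genes at 0.05. The log2(FPKM + 0.1) scale understates changes of low genes. The fit was tested on simulated data. Depth was inferred from the FPKM steps: 99.4% to 99.6% of 2177 to 2295 low values per library were within 0.02 of a whole fragment number, and fragment numbers given for a gene are upper limits, taken over its whole exonic length. At 1 FPKM a gene of the members' median exonic length held at most 117.2 to 124.0 fragments. Library log2 values correlated at 0.9803 to 0.9844 within groups and 0.9548 to 0.9649 between groups, across genes. Named members are those past the threshold, the 2 most abundant and the 2 largest not past it in each class, and those not tested; in other lists, up to 4 called genes. Members, gene lists and sequence words were chosen with earlier results of these data known. MATR3 matched 2 IDs and was left out of its list, and the result of 1 marker gene is not reported here. Other settings tried were 14, plus 1 chosen after seeing the data (pseudogene values added).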

Additional observations from a re-analysis of the deposited data

How the results depend on the processing

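Over 14 other settings and 1 chosen after seeing the data, no called member and no class median changed sign. Among members that did not pass, the sign was not always kept. HNRNPC, for example, went from -0.04 to 0.02 with pseudogene values added. Over all genes fewer rose than fell (1546 and 1752), but more rose than fell with a mean of at least 5 FPKM, after rescaling to TPM (1641 and 1629) and after quantile normalization (1738 and 1636), and the median over all genes went from 0.00 to 0.02, 0.02 and 0.03. HNRNPAB, PTBP1 and DDX39B were called in all 15, and SRRM1 in all 14 that tested it. Leaving out 1 library at a time gave 1094 to 1492 genes higher and 1331 to 1604 lower, with 1 to 3 members higher and 8 to 9 lower: SR genes 0 to 1 higher and 1 to 2 lower, hnRNP genes 0 to 1 higher and 4 lower, kinases 0 to 1 higher, speckle genes 3 lower. Class medians then ran from -0.24 to -0.18 (SR), -0.24 to -0.15 (hnRNP), 0.02 to 0.09 (kinases) and -0.29 to -0.10 (speckle). A mean of at least 5 FPKM, which tests fewer genes, gave 1027 genes higher and 940 lower, and 1 SR gene lower. SRSF8, at a mean of 4.10 FPKM, was not tested there. No kinase could be called there, since the highest kinase mean was 3.50 FPKM. The speckle median of -0.56 then rested only on SRRM2 and DDX39B, both called lower in the main fit. A minimum fold change of 1.2 gave 420 and 693 genes, 0 members higher and 4 lower, with 0 SR, 0 hnRNP and 0 kinase genes higher, and 0 SR and 2 hnRNP genes lower. With no filter 7 members were lower, 0 SR genes higher and 1 SR gene lower. Without trend and robust options 0 SR genes were higher and 1 lower. Quantile normalization gave 0 SR genes higher and an SR median of -0.20, and a pseudocount of 1 an SR median of -0.19.

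Same-numbered libraries did not deviate together (r = -0.08, 0.02 and -0.12), so the replicate numbers were not taken as pairs. A fit with a replicate block gave 1290 genes higher and 1537 lower, and 2 members higher and 9 lower, with 0 SR genes higher.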
